A study of Mus musculus with 9 samples.

Results

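The genes described are 10 CC chemokines, small secreted proteins named after a pair of adjacent cysteines, measured in mouse embryonic fibroblasts (MEFs) with low or high levels of MYC. They were chosen by name from the 19769 genes of the RNA-seq table, with the difference between low-MYC and high-MYC cells already known, so that difference is described below and not tested. Ccl2, Ccl7, Ccl11 and Ccl20 were taken as chemokines that stromal cells such as fibroblasts can make, and Ccl8, Ccl3, Ccl4, Ccl5, Ccl6 and Ccl9 as chemokines made chiefly by myeloid and other blood cells. This grouping is a working one, since macrophages also make Ccl2 and Ccl7, and fibroblasts can make Ccl8.

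Both RNA-seq groups were primary MEFs homozygous for a Myc-Egfp fusion at the endogenous locus, grown from the bodies of decapitated and eviscerated embryos, so that cells other than fibroblasts may remain in such cultures. Cells of both groups received 20 µM MG-132, which blocks the proteasome and so slows the breakdown of MYC, for 6 h, were sorted by GFP signal into a low-MYC and a high-MYC group, and were plated overnight before RNA was taken. Each group has 2 technical replicates, so any spread or p-value below compares these libraries and not animals or cultures. Synthetic ERCC RNA had been added per cell, and the deposited values are fragments per kilobase (FPK) divided by a spike-in score, which sets each mRNA against cell number. A second measurement, TACh-seq, in which a nuclease cuts accessible chromatin, was made in wild-type (WT) MEFs and in Fubp1 knockout MEFs with Fubp2 knocked down by siRNA (KOKD).

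Chemokines bind G protein-coupled receptors on leukocytes and direct their migration. CCL2 and CCL7 act on CCR2 and draw monocytes out of the bone marrow and into tissues, whereas CCL3, CCL4 and CCL5 attract monocytes and T cells. In fibroblasts and macrophages, the transcription of many CC chemokine genes is switched on by interleukin 1, tumour necrosis factor and microbial products through NF-κB, AP-1 and C/EBP factors.

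Most genes of the table were higher in the high-MYC libraries. The median of the 11870 genes tested (those averaging at least 0.1 normalized FPK over the 4 libraries) had a log2 ratio of high-MYC to low-MYC means of 1.03 (each mean + 0.1), and the central 90% of them lay from 0.59 to 1.35. Myc itself was at 9.81 and 9.86 in the low-MYC libraries and at 20.3 and 20.5 in the high-MYC libraries. A difference is therefore also given below after the libraries had been brought to a common median over those genes. This takes out the shift of the median gene. Because 0.1 was added after rescaling too, it does so in full only for genes well above 0.1. Total reads are not used here, but from the smallest values 1 read per kilobase was worth about 0.00437 and 0.00438 normalized FPK in the low-MYC and 0.00982 and 0.0111 in the high-MYC libraries. Only 39.9% to 42.8% of low values came out within 0.1 of a whole read, so the read numbers given below are approximate.

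Ccl2 and Ccl7, the neighbouring genes for the monocyte attractants CCL2 (MCP-1) and CCL7 (MCP-3), were by far the most abundant of the 10 in both groups. Ccl2 was at 4.92 and 4.55 normalized FPK in the low-MYC libraries and at 37.6 and 35.3 in the high-MYC libraries. Both high-MYC libraries were well above both low-MYC libraries, the ratio of means was 7.70, and the log2 ratio was 2.92, or 1.75 after rescaling. Ccl7 was at 2.37 and 1.94 in the low-MYC libraries and at 22.7 and 21.3 in the high-MYC libraries, a ratio of means of 10.2, with a log2 ratio of 3.29 and a rescaled log2 ratio of 2.14. These values rested on roughly 844 to 3114 reads per library for Ccl2 and 356 to 1855 for Ccl7. Among all genes in the table, Ccl2 stood at rank 1132 by mean level in the low-MYC group and at rank 377 in the high-MYC group. The level of Ccl2 was 2.08 and 2.34 times that of Ccl7 in the low-MYC libraries and 1.65 times in both high-MYC libraries, so that the pair came closer together in high-MYC cells. Together they held 98.3% and 97.6% of the summed normalized FPK of the 10 chemokines in the low-MYC libraries and 95.4% and 95.2% in the high-MYC libraries.

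Ccl20, which encodes the ligand of CCR6 on T helper and B cells and on some dendritic cells, was the third in level and the only one of the 10 outside chromosome 11 (chr1:83116766-83119167, + strand, GRCm38). It was at 0.0725 and 0.0709 in the low-MYC libraries and at 1.06 and 0.984 in the high-MYC libraries. The libraries of each group lay close together and far from those of the other group, with a ratio of means of 14.3, a log2 ratio of 2.71 and a rescaled log2 ratio of 1.95, on roughly 23 reads per low-MYC library and 126 to 153 per high-MYC library. Ccl11, which encodes eotaxin, an attractant of eosinophils acting on CCR3, was near the floor in every library. It was listed at 0.00424 and 0 in the low-MYC and at 0.0114 and 0.0194 in the high-MYC libraries, or no more than about 2 reads in any of them, with a log2 ratio of 0.18. Ccl11 was thus hardly measured at this depth, although it lies 22.3 kb from Ccl2.

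**Figure D1:**
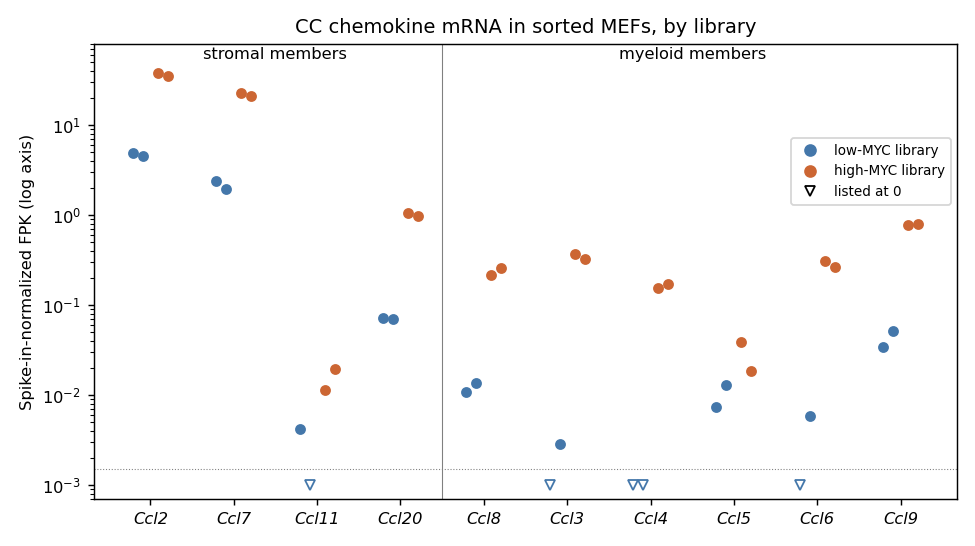
Spike-in-normalized FPK (log axis) of the 10 CC chemokines, 1 point per library, with low-MYC libraries in blue and high-MYC libraries in orange; open triangles under the dotted line mark libraries in which a gene was listed at 0. Ccl2 and Ccl7 lie above all other members in both groups, and Ccl11 and Ccl5 stay below 0.05 in every library.

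The myeloid members were near the floor in low-MYC cells and low but readily detected in high-MYC cells, with Ccl5 as the exception. Ccl9, which encodes a CCR1 ligand of macrophages and osteoclasts, was the highest of them. Its level was 0.0342 and 0.0512 in the low-MYC libraries and 0.777 and 0.807 in the high-MYC libraries, with means 18.5-fold apart and a log2 ratio of 2.64, or 1.98 after rescaling. Ccl9 rested on roughly 24 to 35 reads per low-MYC and 219 to 238 per high-MYC library, and is the only myeloid member with more than about 2 reads in a low-MYC library. Ccl6, its neighbour and close relative, was listed at 0 and 0.00587 in the low-MYC libraries and at 0.306 and 0.267 in the high-MYC libraries, with a log2 ratio of 1.91.

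Ccl3 and Ccl4 encode MIP-1α and MIP-1β, which activated macrophages and lymphocytes secrete. Ccl3 was listed at 0 and 0.00289 in the low-MYC libraries and at 0.374 and 0.329 in the high-MYC libraries, with a log2 ratio of 2.15. Ccl4 was listed at 0 in both low-MYC libraries and at 0.153 and 0.174 in the high-MYC libraries, on roughly 10 reads each, so no fold is given for it. Ccl8, which encodes MCP-2, was at 0.0108 and 0.0135 in the low-MYC libraries and at 0.218 and 0.260 in the high-MYC libraries, with a log2 ratio of 1.59. For Ccl6, Ccl3 and Ccl8 the low-MYC values stood on at most about 2 reads, so the ratios of means (97.6, 243 and 19.7) are set by the smallest values and carry little precision. Ccl5, which encodes RANTES, an attractant of T cells and monocytes, stayed low throughout at 0.00734 and 0.0129 in the low-MYC and 0.0391 and 0.0186 in the high-MYC libraries. The gap between its 2 high-MYC libraries was wider than that between the lower of them and the low-MYC libraries, and about 2 reads at most stood behind each value. Its log2 ratio was 0.23 with 0.1 added, 0.95 with 0.01 and 1.43 with 0.001, and 0.06 after rescaling, so its size relative to other genes is not settled by these values.

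The order of the levels differed between the groups mainly below Ccl9. In low-MYC cells it ran Ccl2, Ccl7, Ccl20, Ccl9, Ccl8, Ccl5, Ccl6, Ccl11, Ccl3 and Ccl4, where the ranges of Ccl8 and Ccl5, and of each neighbouring pair from Ccl6 down to Ccl4, overlapped. In high-MYC cells it ran Ccl2, Ccl7, Ccl20, Ccl9, Ccl3, Ccl6, Ccl8, Ccl4, Ccl5 and Ccl11, and Ccl5 and Ccl11 were the only neighbours whose ranges overlapped. The summed level of the 6 myeloid members went from 0.0524 and 0.0863 in the low-MYC libraries to 1.87 and 1.86 in the high-MYC libraries, which was still far below Ccl7 alone. In bulk RNA, fewer cells of a type and less RNA per cell cannot be told apart, so these sums do not say how many cells carried the transcripts.

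For 10 of the 10 genes both high-MYC libraries were above both low-MYC libraries, but this was so for 92.5% of all 19769 genes, and the members had been chosen on this contrast. After rescaling, 9 of the 10 genes still did not overlap between groups, all except Ccl5, against 31.7% of all genes. A filter on low values (a mean of at least 0.1) kept 7 members, all except Ccl11, Ccl4 and Ccl5, and 5 of these (Ccl20, Ccl8, Ccl3, Ccl6 and Ccl9) passed it only through the high-MYC group. Only Ccl2 and Ccl7 averaged at least 0.1 in low-MYC cells as well. Nothing is read from these counts, since they follow from the choice of the members.

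Whether the stromal or the myeloid members differed more between groups depended on the pseudocount. With 0.1 added to each mean, the median log2 ratio was 2.81 over the 4 stromal members and 1.75 over the 6 myeloid members. After rescaling it was 1.85 and 1.37, but rescaling moved scarce members less. Ccl2 went from 2.92 to 1.75 and Ccl4 from 1.40 to 1.12. With 0.01 added, the order was the reverse, at 3.14 and 4.02, and with 1 added it was 1.81 and 0.33. Ccl2 and Ccl7 moved little with this choice, whereas the ratios of Ccl3, Ccl4 and Ccl6 grew steeply as the pseudocount shrank, because their low-MYC values were at or next to 0. On the linear scale, Ccl2 and Ccl7 gained the most normalized FPK, and no myeloid member gained as much as 1. The median log2 ratio of all 10 members, with Ccl11, Ccl4 and Ccl5 that failed the filter, was 2.03, beside 1.03 over the genes tested. These are unlike sets, and the members were chosen on this contrast.

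**Figure D2:**
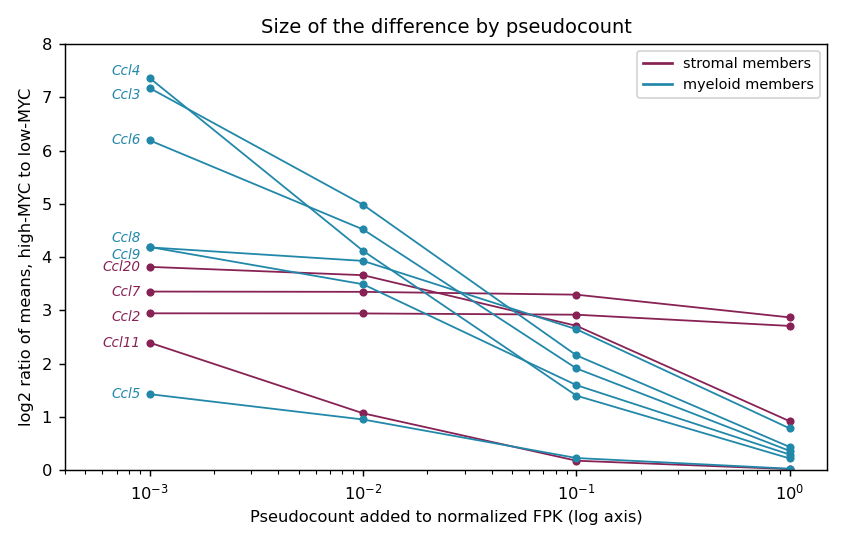
Log2 ratio of high-MYC to low-MYC means for each member against the pseudocount added to both means (log axis), with stromal members in purple and myeloid members in blue. The lines of Ccl2 and Ccl7 are nearly flat up to 0.1, whereas those of Ccl3, Ccl4 and Ccl6 lie above them at 0.001 and below them from 0.1 on.

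Except for Ccl20, the members lie on chromosome 11 in a pair of clusters, which are known sites of gene duplication and are 1409 kb apart. The first spans 81.2 kb (chr11:82035571-82116799) in GRCm38 and holds Ccl2, Ccl7, Ccl11, Ccl12 and Ccl8, all on the + strand. The second spans 138.9 kb (chr11:83525778-83664683) and holds Ccl5, Ccl9, Ccl6 and Ccl3 on the - strand and Ccl4 on the + strand. Reads from such related genes could be divided between them by the quantification, which matters most for the members with few reads. Within the first cluster the log2 ratio was high at Ccl2 and Ccl7, low at the scarcely detected Ccl11 and again above that of the median gene at Ccl12 and Ccl8. Ccl12, which encodes a further mouse ligand of CCR2, was listed at 0 in both low-MYC libraries and at 0.144 and 0.220 in the high-MYC libraries.

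In the second cluster Ccl5, at one end, had the lowest log2 ratio on this scale (0.1 added), and the other 4 genes had log2 ratios of 1.40 to 2.64. Several genes to either side of the clusters were close to the median gene. Before Ccl2 these were Tmem98, with a log2 ratio of 1.27, and Myo1d, with 0.84. Both are far from the cluster, at -1225 and -1553 kb from Ccl2. Around the second cluster, the log2 ratio was 1.12 for Taf15 and 0.84 for Mmp28, at -52.7 and -85.0 kb from Ccl5. It was 1.00 for Heatr6 beyond Ccl4, 228 kb from Ccl5. Wfdc17 stood above these genes. It encodes a secreted protein expressed in macrophages and lies 178 kb from Ccl5, between Ccl4 and Heatr6. Wfdc17 was at 0.00191 and 0.00958 in the low-MYC libraries and at 0.621 and 0.625 in the high-MYC libraries, a log2 ratio of 2.77. Beyond Ccl8, Tmem132e and Cct6b, 353 and 684 kb from Ccl2, had log2 ratios of 0.11 and 0.01 at levels near 0. Around Ccl20, the nearest genes in the table (Slc19a3, Gm7553, Sphkap and Pid1) all had means under 0.1, with log2 ratios from 0.01 to 0.47.

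**Figure D3:**
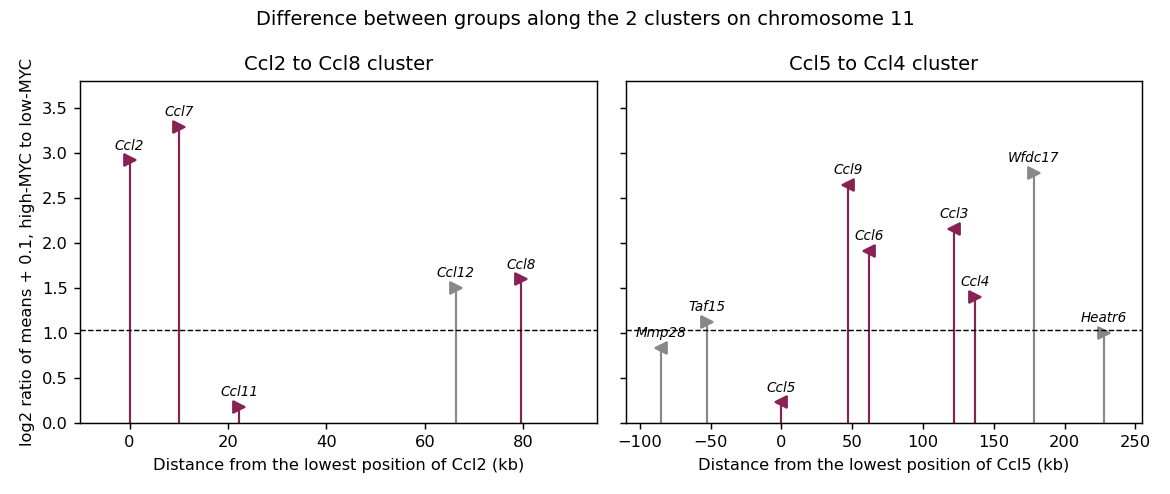
Log2 ratio of high-MYC to low-MYC means (each + 0.1) against distance along chromosome 11 in kb, with members in purple, other genes of the table in grey, arrowheads for the strand and a dashed line at the median of all genes tested (1.03). Within each cluster, members above the line stand beside 1 member below it, Ccl11 in the first and Ccl5 in the second, whose levels are so low that the added 0.1 sets their ratio.

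RefSeq promoter windows (GRCm38.p6, 250 bases before to 50 after the start) were at hand for 5 of the 10 members, namely Ccl20, Ccl8, Ccl3, Ccl6 and Ccl9, and not for Ccl2, Ccl7, Ccl11, Ccl4 and Ccl5. Windows of 4 of these are printed 5′ to 3′, Ccl9 and Ccl6 because they are neighbours with a shared stretch, Ccl20 as the stromal member and Ccl8 as the member with a TATA box in the usual place. Capitals mark, on either strand, the TATA box (letters TATAAA), an NF-κB-like motif (letters GGGNNNNNCC), an AP-1-like motif (letters TGANTCA) and a C/EBP-like motif (letters TTGCNNAA). The windows are chr11:83578587-83578886 (- strand) for Ccl9, chr11:83593038-83593337 (- strand) for Ccl6, chr1:83116516-83116815 (+ strand) for Ccl20 and chr11:82114935-82115234 (+ strand) for Ccl8.
Ccl9: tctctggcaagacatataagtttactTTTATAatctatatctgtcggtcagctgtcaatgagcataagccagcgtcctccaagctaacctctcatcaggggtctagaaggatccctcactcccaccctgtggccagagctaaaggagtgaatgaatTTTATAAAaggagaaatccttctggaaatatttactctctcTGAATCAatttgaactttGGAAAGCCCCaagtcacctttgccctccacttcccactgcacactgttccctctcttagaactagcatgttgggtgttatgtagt
Ccl6: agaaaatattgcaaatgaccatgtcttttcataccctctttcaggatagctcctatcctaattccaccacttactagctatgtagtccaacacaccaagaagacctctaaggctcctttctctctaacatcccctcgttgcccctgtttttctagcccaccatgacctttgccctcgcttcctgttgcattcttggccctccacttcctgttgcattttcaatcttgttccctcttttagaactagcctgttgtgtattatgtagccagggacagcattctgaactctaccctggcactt
Ccl20: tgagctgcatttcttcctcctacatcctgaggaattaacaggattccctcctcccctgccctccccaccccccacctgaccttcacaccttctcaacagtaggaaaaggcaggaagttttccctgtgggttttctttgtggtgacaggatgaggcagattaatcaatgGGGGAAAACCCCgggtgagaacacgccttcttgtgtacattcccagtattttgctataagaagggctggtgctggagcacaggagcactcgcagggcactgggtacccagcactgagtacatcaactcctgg
Ccl8: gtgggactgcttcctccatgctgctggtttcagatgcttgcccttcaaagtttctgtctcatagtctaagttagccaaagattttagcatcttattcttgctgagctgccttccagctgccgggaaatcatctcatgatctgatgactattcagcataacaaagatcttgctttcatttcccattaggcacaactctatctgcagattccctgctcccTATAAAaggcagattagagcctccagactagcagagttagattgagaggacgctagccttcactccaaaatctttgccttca

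Positions are counted from the start base, which is 0. The Ccl20 window held 4 overlapping matches to the NF-κB-like motif on both strands within a single run of 12 bases from -82 to -71. Ccl8 had a TATA box from -32 to -27. In Ccl9, the TATA box letters were found on the - strand at -224 and -94 and on the + strand at -92, the last pair overlapping, with the AP-1-like motif from -53 to -47 and the NF-κB-like motif from -35 to -26 on the - strand. Ccl6 and Ccl3 held none of these 4 motifs. Among 32544 RefSeq windows of the same length, 13.6% held the TATA box letters, 51.0% the NF-κB-like, 7.79% the AP-1-like and 10.8% the C/EBP-like motif. The E-box CACGTG, the core letters of the MYC-binding site, was in 0 of the 5 windows and in 7.17% of all windows, and the letters GAGGAA, which PU.1 can bind, were in Ccl20, Ccl8 and Ccl3 and in 28.1% of all windows. The best-scoring ungapped match between the windows of Ccl6 and Ccl9 covered 40 bases, 36 of them identical (90%). It ran from -25 to 14 in Ccl6 and from 9 to 48 in Ccl9. Such matches are descriptions of the letters and do not show that a factor was bound.

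The TACh-seq table gave a measurement of these genes that had no part in their choice. It lists 4881417 reads that lie in 26043 islands (stretches with no gap over 600 bp), and no column names a library. The name of the table points to a WT sample, but the labels of all 4 TACh-seq samples cite it, so which libraries the reads came from is not known and WT and KOKD MEFs were not compared here. Since reads are listed for limited regions only, a gene with none is not shown to be closed. Of the 10 members, 3 had listed reads within 1 kb of the gene start, namely Ccl2, Ccl7 and Ccl9, beside 68.3% of 14998 protein-coding genes. That share was 90.1% for genes averaging at least 1 normalized FPK, 79.3% from 0.1 to under 1 and 33.4% under 0.1. By the mean over the 4 RNA libraries, Ccl2 and Ccl7 were of the first kind, Ccl20, Ccl9, Ccl8, Ccl3 and Ccl6 of the second and Ccl11, Ccl4 and Ccl5 of the third. Those of the second kind all averaged under 0.1 in low-MYC cells and reached it through the high-MYC libraries, so these shares do not serve as a yardstick for them.

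Ccl2 had 173 reads within 1 kb, of which 69.9% lay upstream of the start, and the fullest 100 bp, with 37 reads, ran from -200 to -100. At least as many reads were listed for 28.5% of protein-coding genes. Ccl7 had 133 reads, 45.1% of them upstream, with the fullest 100 bp (31 reads) directly before the start, and 40.7% of protein-coding genes had at least as many. Ccl9 had 76 reads, only 9.21% of them upstream, and its fullest 100 bp within 2 kb (27 reads) ran from 1300 to 1400 bp downstream of the start, inside the gene. Most reads at Ccl9 thus lay downstream of its annotated start, although the island itself also covered the start and the promoter window printed above, and 153 reads were found around another annotated transcript start of the gene.

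**Figure D4:**
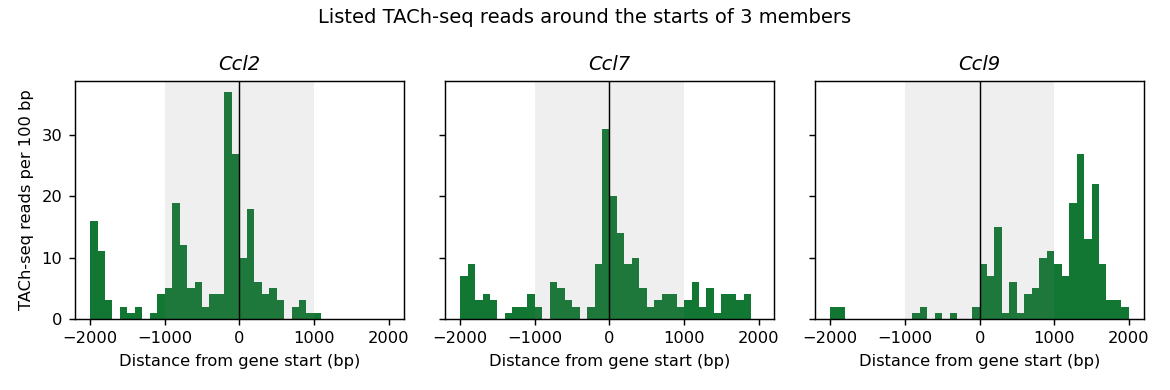
Listed TACh-seq reads in bins of 100 bp against distance from the gene start (negative upstream, in the direction of transcription) for the 3 members with reads within 1 kb, the shaded stretch. The fullest bin lies shortly before the start at Ccl2 and Ccl7, with the reads at Ccl7 on both sides of the start. At Ccl9 reads crowd from 800 to 1700 bp downstream of it.

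In the first cluster, single islands covered the starts of Ccl2 (478 reads) and Ccl7 (308 reads), and a further island of 181 reads lay between these genes. Beyond them, 3 islands of 86 to 189 reads lay in the stretch between Ccl11 and Ccl12. In the second cluster an island of 197 reads covered the Ccl9 start, another of 220 reads lay between Ccl9 and Ccl6, and 3 more of 79 to 194 reads lay elsewhere in it. For the other 7 members the nearest island was 2766 bp downstream of the start at Ccl20, 3658 bp upstream at Ccl5 and 7908 to 26659 bp away at Ccl11, Ccl6, Ccl8, Ccl3 and Ccl4. The FUBP1 ChIP-seq list covered chromosome 15 alone, where no member lies, so FUBP1 binding at these genes was not analysed here.

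Markers of macrophages moved with the group. All 22 markers of a macrophage list were higher in both high-MYC libraries than in both low-MYC libraries, as were 92.5% of all 19769 genes. The summed normalized FPK of the list was 0.999 and 1.36 in the low-MYC libraries and 30.7 and 32.0 in the high-MYC libraries. Of the 22 markers, 4 (Adgre1, C1qa, Tyrobp and Spi1) were at 0 in the first low-MYC library and none in the second. The 12 markers that could be tested were all called higher (limma with Benjamini-Hochberg adjustment, adjusted p under 0.01 and at least 2-fold, as 55.1% of all genes tested were), and 11 of them also after rescaling at any fold, as 1.76% of all genes were. Only Cd68 and Cd14 of the 12 averaged at least 0.1 in low-MYC cells. The others passed the filter only through the high-MYC group, which favours a call of higher. Cd14 was the marker not called after rescaling (adjusted p = 0.0214, limma). Lyz2, the macrophage and granulocyte lysozyme, was at 0.0305 and 0.142 in the low-MYC and 17.99 and 18.94 in the high-MYC libraries. Cd68, a lysosomal protein of macrophages, went from 0.549 and 0.661 to 4.27 and 4.72, and Cd14, the coreceptor for bacterial lipopolysaccharide, from 0.322 and 0.431 to 1.91 and 1.85.

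The fibroblast list stood far above the macrophage list in every library, with a sum of 440 and 447 in the low-MYC and 1079 and 1109 in the high-MYC libraries, led by Vim, S100a4 and Thy1. Of its 17 tested markers, 16 were called higher at 2-fold, beside 55.1% of all genes tested. After rescaling, 3 were called higher at any fold (Pdgfra, Dcn and Lum), beside 1.76% of all genes tested. Of the neutrophil and mast cell list 3 of 12 markers had values, with S100a8, a calcium-binding protein of neutrophils, the highest at 0.0576 and 0.0908 in the low-MYC and 0.535 and 0.543 in the high-MYC libraries. The lymphocyte list had 1 of 12 markers with values (Gzmb, at 0.0228 or less in every library), the endothelial list 6 of 8 and the epithelial list 5 of 8. Kdr, a receptor of vascular endothelium, was at 0.161 and 0.162 in the low-MYC and 0.251 and 0.293 in the high-MYC libraries. The keratins Krt19 and Krt18 were at 1.07 and 1.13 and at 0.0769 and 0.0715 in the low-MYC libraries. In the high-MYC libraries they were at 2.14 and 2.24 and at 0.231 and 0.327. Krt18 was the 1 epithelial marker called at 2-fold (limma), and it passed the filter on low values only through the high-MYC group. The part of any of these cell types in the chemokine levels was not tested.

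CC receptors were hardly detected in any library. Of 15 receptors listed, 7 had values, none reached the mean of 0.1 needed for the test, and their summed normalized FPK was 0.0502 and 0.0710 in the low-MYC and 0.278 and 0.275 in the high-MYC libraries. Ccr1, the receptor of CCL3, CCL5, CCL6 and CCL9, was the highest at 0.0192 and 0.0239 in the low-MYC and 0.134 and 0.177 in the high-MYC libraries. Ccr2, the receptor of CCL2 and CCL7, and Ccr6, that of CCL20, were among the 8 receptors without values. Ccrl2, Ackr1 and Ccr10 did not exceed 0.06 in any library. With no filter on low values, Ccr1 was the 1 receptor called.

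Most CC ligands outside the 10 were not detected. Of 11 such ligands 5 had values and 2 were tested. Limma with Benjamini-Hochberg adjustment called 0 of the 2 at 2-fold, beside 55.1% of all genes tested. At an unadjusted p under 0.05 and 2-fold the count was also 0. At any fold it called 1, beside 11530 of the 11870 genes tested. Ccl27a, which encodes a chemokine of keratinocytes, was at 0.175 and 0.159 in the low-MYC and 0.385 and 0.359 in the high-MYC libraries, a log2 fold change of 0.82 ± 0.06 (SE, adjusted p = 5.49e-05, limma), which after rescaling was -0.02. Ccl17, which encodes the CCR4 ligand TARC, was at 0.313 and 0.383 against 0.314 and 0.265, a log2 fold change of -0.20 (adjusted p = 0.111, limma), and its level overlapped between the groups. After rescaling, the log2 fold change of Ccl17 was -1.11 (adjusted p = 0.0145, limma), which did not pass the threshold of 0.01. Ccl25 and Ccl28 stayed under 0.1 in every library, and Ccl12 was described with its cluster.

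CXC ligands, the other large chemokine family, were the nearest comparison. Of 14 listed, 10 had values and 8 were tested. Limma with Benjamini-Hochberg adjustment called all 8 higher at 2-fold, beside 55.1% of all genes tested. After rescaling it called 5 of them at any fold (Cxcl1, Cxcl5, Ppbp, Pf4 and Cxcl14), beside 1.76% of all genes tested. Cxcl2 and Pf4 averaged under 0.1 in low-MYC cells and passed the filter only through the high-MYC group. The median log2 ratio of the CXC ligands was 2.10 over the 10 with values, next to 2.03 over the 10 CC members. Cxcl5, an attractant of neutrophils, went from 2.376 and 1.999 in the low-MYC libraries to 44.53 and 43.99 in the high-MYC libraries, a log2 fold change of 4.28 ± 0.08 (SE, adjusted p = 1.04e-05, limma). Ppbp, a platelet and monocyte chemokine, went from 5.02 and 5.04 to 30.3 and 33.3, and Cxcl14 from 1.84 and 1.75 to 10.60 and 11.01. Cxcl1, a neutrophil attractant that shares inducers with Ccl2, went from 0.759 and 0.768 to 7.31 and 6.92, a log2 fold change of 3.06. Cxcl12, a homeostatic stromal chemokine, went from 8.94 and 9.02 to 17.5 and 18.8, a log2 fold change of 1.01 that was -0.16 after rescaling and so followed the median gene. The difference between the CC and the CXC ligands was not tested, since both were listed with results known.

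The list of upstream signals and factors, which holds cytokines, their receptors and transcription factors known to act on CC chemokine genes, mostly moved with the median gene. Of 29 listed, 28 had values and 25 were tested, of which 17 were called higher at 2-fold and all 25 at any fold (limma with Benjamini-Hochberg adjustment). Of all genes tested, 55.1% were called at 2-fold, and 11530 of 11870 at any fold. The median log2 ratio of the 28 was 1.09, close to the 1.03 of all genes tested. After rescaling, 4 were higher, beside 1.76% of all genes tested, and 1 was lower. Of the 4, Il1a averaged under 0.1 in low-MYC cells and passed the filter only through the high-MYC group. Il6, the cytokine interleukin 6, had the largest log2 fold change of the 4 at 2.26 ± 0.06 (SE, adjusted p = 1.04e-05, limma) and 1.22 after rescaling (adjusted p = 0.00261). Cebpd, a C/EBP transcription factor of the acute response, followed at 0.95 after rescaling (adjusted p = 0.00301, limma), then Il1a, the cytokine interleukin 1α, at 0.94 (adjusted p = 0.00729) and Stat3, which carries the interleukin 6 signal, at 0.38 (adjusted p = 0.00826). Fosl1, an AP-1 subunit, was the 1 lower, at -0.39 (adjusted p = 0.00738, limma).

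The most abundant of that list, Jun, Nfkbia, Junb, Zfp36 and Tnfrsf1a, had log2 fold changes of 0.92 to 1.37 and did not reach an adjusted p under 0.01 after rescaling. Jun, an AP-1 subunit, was at 18.6 and 20.0 in the low-MYC and 35.2 and 37.9 in the high-MYC libraries. Nfkbia, the NF-κB inhibitor that NF-κB itself induces, was at 3.76 and 3.91 against 9.24 and 9.38. Spi1, which encodes PU.1, the transcription factor of the myeloid lineage, was listed at 0 and 0.000393 in the low-MYC and at 0.0228 and 0.0255 in the high-MYC libraries.

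**Figure D5:**
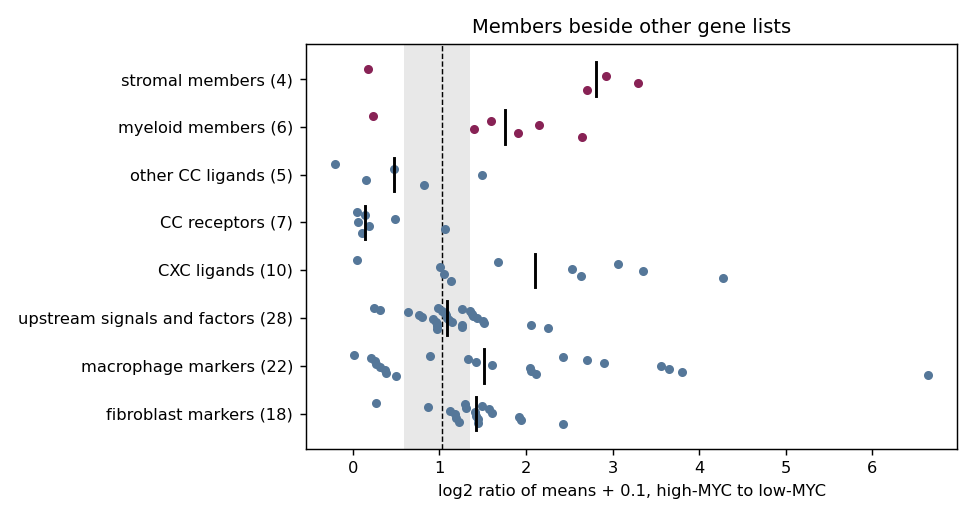
Log2 ratio of high-MYC to low-MYC means (each + 0.1), 1 point per gene with values, for the stromal and myeloid members (purple) and other gene lists (blue), with a black bar at each median, a dashed line at the median of all genes tested and a grey band over their central 90%. The stromal members (2.81), myeloid members (1.75) and CXC ligands (2.10) have medians right of the band, while the CC receptors (0.14) and other CC ligands (0.48) lie left of it, with most of their genes at levels under the added 0.1.

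For each of the 7 members averaging at least 0.1, the genes most alike over the 4 libraries were found. The measure was the root mean square difference of centred log2(normalized FPK + 0.1). It was 0.02 to 0.12 for all genes named here. Over 4 libraries in 2 groups, this measure reflects little more than a like difference between the groups on that scale. Where low-MYC values lie under 0.1, the added 0.1 sets much of the likeness, and the ratios of means can differ widely. That ratio was 387 for Tyrobp beside 7.70 for Ccl2, and 412 for Pf4 beside 10.2 for Ccl7. Nearest to Ccl2 were Tyrobp, Cxcl1 and Adam8, to Ccl7 Penk, Apoe and Pf4, and to Ccl20 Adam8, Mmp3 and Wfdc17. Nearest to Ccl9 were Cd68, Ppbp and Ly6a, and to Ccl3 Trem2, Lilr4b and CT010467.1. Gpx3 and Icam1 were near to Ccl6. Ccl8 was nearest to Timp3, Vcan and Trib2. Tyrobp, Cd68, Trem2 and Lilr4b are genes of myeloid cells, while Timp3, Vcan and Penk are commonly expressed in fibroblasts. Both kinds occurred beside stromal and myeloid members, and no cell type is read from these matches.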

How the data were processed

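RNA-seq libraries were made with TruSeq stranded mRNA kits. The authors trimmed bases with a quality under 20, mapped the reads onto mm10 transcripts with TopHat and estimated reads per transcript by Partek's expectation-maximization. They then divided these by transcript length (FPK) and by the geometric mean of 10 ERCC spike-in transcripts. The deposited signal values are these spike-in-normalized FPK, relative to cell number. Versions of TopHat and Partek are not given in the sources used here. TACh-seq reads were mapped by the authors to mm10 with Bowtie2, and the deposited table gives positions and a mapping score for each read.

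From the deposited values, limma 3.58.1 was used to compare the groups on log2(normalized FPK + 0.1) with eBayes and trend in R 4.3.3, over 11870 genes that averaged 0.1 or more, with Benjamini-Hochberg adjustment over all of them. Genes were called at an adjusted p under 0.01 and at least 2-fold, and after rescaling at any fold. The rescaled counts in the section on processing below keep the 2-fold cut. Log2 ratios of members are of group means, each with 0.1 added, and understate the change of low genes. The procedure was tested on simulated data. Members and lists were chosen with earlier results of these data known. Named were all members, up to 5 genes of each list by mean level (3 of the macrophage and fibroblast lists, and of the other marker lists those tested or alone in having values), every gene of a list with 5 or fewer calls, the 3 nearest profiles of each tested member, and cluster neighbours by position. Myc and Spi1 were named outside this rule, Spi1 after its values were seen. A gene of the receptor list and a near profile that this rule names are not reported here.

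TACh-seq reads were counted by their midpoint around GENCODE M21 gene starts. Promoter windows are those of RefSeq (GRCm38.p6), and motifs were searched on both strands. Alternatives covered the pseudocount, the filter, the scaling, the limma trend, the replicate block, each library, the place of Ccl8, and the TACh-seq window, score and start. Python 3.11.15, pandas 2.3.3, numpy 2.4.6 and matplotlib 3.10.9 were used.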

Additional observations from a re-analysis of the deposited data

How the results depend on the processing

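Genes called higher in high-MYC cells numbered 6540, against 10076, 12806 and 1448 with pseudocounts of 0.01, 0.001 (minimum mean 0.005) and 1. At any fold they numbered 11530, and after rescaling to the same median or total, with 2-fold kept, 68 and 71. All counts after rescaling in this section keep the 2-fold cut, whereas those given earlier are at any fold (209 genes for the median). CC receptors called (0) became 1 with no filter, 2 with a pseudocount of 0.001 and 0 to 1 leaving out a library (1 without either low-MYC library). Other CC ligands called (0) became 1 with a pseudocount of 0.01, with no filter and at any fold, 4 with a pseudocount of 0.001 and 0 to 1 leaving out a library (1 without either low-MYC library). Upstream genes called (17) became 7 with a pseudocount of 1 and 1 after either rescaling. The stromal median log2 ratio (2.81) was 3.14, 3.15 and 1.81 with pseudocounts of 0.01, 0.001 and 1, 1.85 and 1.86 after rescaling to the same median or total, 2.71 with Ccl8 and 2.76 to 2.86 leaving out a library; the myeloid median (1.75) was 4.02, 5.19 and 0.33, then 1.37 after both rescalings, 1.91 without Ccl8 and 1.72 to 1.78 leaving out a library. All 90 member log2 ratios under these settings were above 0, a direction fixed by the choice of members. In settings added after seeing the data, CXC ligands called (8) were 4 with a pseudocount of 1 and 5 after either rescaling, macrophage markers (12) 6 and 10, and fibroblast markers (16) 15 and 1. Reads near the start were found for 3 members under every TACh-seq setting.

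Samples with the same replicate number did not clearly deviate together (r = 0.08 over 11870 genes), so the numbers do not pair the samples. The replicate block gave 6556 genes and left the counts of CC receptors, other CC ligands, upstream genes, CXC ligands, macrophage and fibroblast markers as they were.

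Limits: with 2 technical replicates per group, tests compare libraries. Members with few reads in low-MYC cells have ratios that depend on the pseudocount, and rescaling to the median assumes that the typical gene did not change per cell.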
